A study of Mus musculus with 6 samples.

Results

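The Id factors and the E proteins oppose each other in one regulatory system, and their 6 genes, *Id1*, *Id2*, *Id3*, *Tcf3*, *Tcf4* and *Tcf12*, were followed here in double-negative (DN) thymocytes with and without additional NFATc1. They were taken by symbol from tables that list 41457 genes, and all 6 had enough reads to be among the 12224 genes tested. RNA had been sequenced from freshly isolated thymocytes depleted of CD4+ and CD8+ cells on magnetic beads. There were 3 libraries of BirA mice and 3 of Nc1Bio mice. BirA mice, whose genotype label is WT, express the bacterial biotin ligase BirA from the *Rosa26* locus, and so do the Nc1Bio mice. Nc1Bio mice carry in addition 1 copy of a bacterial artificial chromosome (BAC) with the whole *Nfatc1* locus, in which NFATc1/A bears a biotin tag, so that the transgene is driven by its own regulatory regions in whichever cells use them. The mice were C57/B6 animals of 4 to 6 weeks, matched for age and sex. Whether each library came from a separate animal is not given in the labels, so the p-values below measure the spread between these libraries, which may be technical. In bulk RNA, fewer cells of a type and less RNA per cell cannot be told apart.

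E proteins are basic helix-loop-helix (bHLH) transcription factors that bind as dimers to a short DNA element, the E-box. *Tcf3* encodes E2A (the E12 and E47 proteins), *Tcf12* encodes HEB and *Tcf4* encodes E2-2, the E protein best known from plasmacytoid dendritic cells. Id proteins have the helix-loop-helix but no basic region, so they pair with an E protein and keep it from DNA. In the thymus E2A and HEB drive T lineage genes, recombination and the arrest of early thymocytes before the receptor checkpoint, while *Id3* is induced by T cell receptor signals through Egr factors and *Id2* is required for natural killer (NK) and innate lymphoid cells. γδ T cells and innate-like T cells are known to depend on the dose of Id proteins.

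Promoter windows are shown for *Id2*, *Id3* and *Tcf12*, the 3 members whose libraries did not overlap between the groups. They come from RefSeq (GRCm38.p6) and run from 250 bases before to 50 bases after the RefSeq start of transcription. Capitals mark E-boxes (CANNTG) and the NFAT core (GGAAA), searched on both strands, and the motifs overlap nowhere in these windows.
Id2, chr12:25096043-25096342, minus strand: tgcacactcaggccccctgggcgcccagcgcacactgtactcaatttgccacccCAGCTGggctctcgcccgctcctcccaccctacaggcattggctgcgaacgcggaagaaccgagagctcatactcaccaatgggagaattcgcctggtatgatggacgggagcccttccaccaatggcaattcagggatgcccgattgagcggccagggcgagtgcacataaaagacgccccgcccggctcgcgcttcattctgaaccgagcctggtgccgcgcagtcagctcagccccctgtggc
Id3, chr4:136143572-136143871, plus strand: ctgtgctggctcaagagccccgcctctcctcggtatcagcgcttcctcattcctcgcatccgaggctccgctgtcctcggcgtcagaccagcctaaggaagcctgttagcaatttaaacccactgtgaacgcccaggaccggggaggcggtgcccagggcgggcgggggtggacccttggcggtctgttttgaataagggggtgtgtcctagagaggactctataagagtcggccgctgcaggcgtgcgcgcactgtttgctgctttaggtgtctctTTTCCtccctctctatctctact
Tcf12, chr9:72111770-72112069, minus strand: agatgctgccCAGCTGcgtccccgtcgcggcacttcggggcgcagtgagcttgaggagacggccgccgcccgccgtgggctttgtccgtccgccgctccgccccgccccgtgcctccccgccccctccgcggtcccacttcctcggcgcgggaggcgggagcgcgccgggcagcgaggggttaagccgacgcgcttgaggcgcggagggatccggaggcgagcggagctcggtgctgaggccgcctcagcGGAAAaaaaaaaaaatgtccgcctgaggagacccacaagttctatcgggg

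The *Id2* window held 1 E-box, at position -196 from the start, and no NFAT core. In *Id3* the window held no E-box and 1 NFAT core, at position 27 after the start. The first of 3 *Tcf12* windows held 1 of each, and the *Tcf3* window, not shown, held 1 E-box at position -54. Such matches are common, since 72.3% of 32851 promoter windows held an E-box and 61.3% an NFAT core, and they describe the letters alone. Also searched on both strands were an Egr motif (GCGNGGGCG), which no window of these genes held against 5.55% of all, and a SMAD motif (GGCGCC), which the *Id2* window held once, at position -231, against 11.9% of all. The RefSeq starts lie 1048, 325 and 52 bases inside the deposited gene regions of *Id2*, *Id3* and *Tcf12*.

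The genes lie apart in the genome, with coordinates as deposited (GRCm38). *Id1* (ENSMUSG00000042745) spans 152736251 to 152737410 on chromosome 2, *Id2* (ENSMUSG00000020644) 25093799 to 25097140 on chromosome 12 and *Id3* (ENSMUSG00000007872) 136143497 to 136145755 on chromosome 4. *Tcf3* (ENSMUSG00000020167) spans 80409514 to 80433647 on chromosome 10, *Tcf4* (ENSMUSG00000053477) 69343356 to 69689079 on chromosome 18, the chromosome of *Nfatc1* itself, and *Tcf12* (ENSMUSG00000032228) 71842688 to 72111871 on chromosome 9. The Id genes are compact, with 1160, 2438 and 1791 bases of exon for *Id1*, *Id2* and *Id3*. The E protein genes carry many annotated transcripts, 14 for *Tcf3*, 62 for *Tcf4* and 21 for *Tcf12*, and their joined exons reach 4039, 27382 and 15529 bases. Within *Tcf12* lie 8 small gene models and within *Tcf4* 1, so reads shared with these are uncertain.

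The libraries held 11845952 to 15393763 reads assigned uniquely to a gene, given below as CPM, the counts scaled to a common library size with TMM factors. Haemoglobin took a large share in 2 of them, *Hbb-bs* reaching 4.57% of the reads of BirA replicate 1 and 5.92% of Nc1Bio replicate 3. As a check of the labels, *Nfatc1* stood at 126 ± 27.9 CPM in BirA and 573 ± 23.2 CPM in Nc1Bio (SD, n = 3), a 4.56-fold difference (edgeR quasi-likelihood, adjusted p = 0.0141). Of the markers of early thymocytes, all 11 were tested, and their summed level was 6190 to 7060 CPM in BirA and 6890 to 7710 CPM in Nc1Bio. The co-receptor genes used for depletion were low, *Cd4* at 0.834 to 6.85 CPM and *Cd8a* at 4.25 to 14.0 CPM over the 6 libraries.

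The comparison asks whether the balance of Id and E protein transcripts differed with the additional NFATc1. All 3 Id genes were lower on average in Nc1Bio and all 3 E protein genes were higher, yet none passed the edgeR test after adjustment over all genes. The rule called 1 of the 12224 genes (0.00818%), which was *Nfatc1*. Of the members, 2, *Id2* and *Id3*, were lower with an unadjusted p under 0.05, beside 7.66% of all genes tested. DESeq2 called 1 member lower, *Id3*, beside 2.16% of the genes with an adjusted p. By limma-voom 0 members were called, beside 1 of the 12224 genes. There *Id2* and *Id3* were lower at an unadjusted p under 0.05, beside 850 of the 12224 genes. Groups did not overlap for *Id2* and *Id3* (lower, as were 9.98% of all genes) and for *Tcf12* (higher, as were 8.45%).

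**Figure D1:**
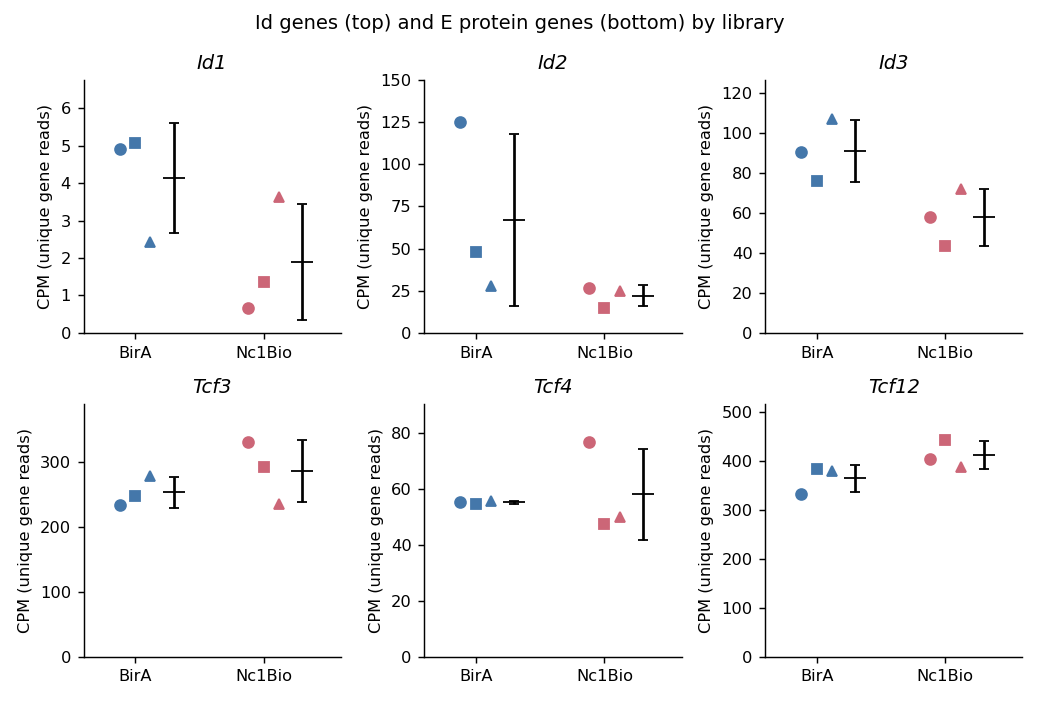
Level of each gene (vertical axis, CPM from 0) in the 3 BirA (blue) and 3 Nc1Bio libraries (red). Circles, squares and triangles are replicates 1, 2 and 3, and black bars show the mean ± SD. All Nc1Bio points of *Id2* and *Id3* lie under the BirA points, those of *Tcf12* lie over them, and the *Id2* mean of BirA rests largely on replicate 1 at 125 CPM.

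*Id3*, the Id gene most tied to receptor signalling in thymocytes, had the smallest standard error of the 3 Id genes. Its level was 90.5, 75.9 and 107 CPM in the BirA libraries and 58.1, 43.5 and 72.0 CPM in the Nc1Bio libraries. The highest Nc1Bio library lay just under the lowest BirA library. The means were 91.3 ± 15.8 and 57.9 ± 14.2 CPM (SD, n = 3), which is 1.58-fold lower in Nc1Bio. Its log2 fold change was -0.66 (SE 0.20, 95% interval -1.12 to -0.20), with an unadjusted p of 0.0110 and an adjusted p of 0.300 in edgeR. DESeq2 gave nearly the same fold with an adjusted p of 0.0333, which missed the threshold of 0.01 that the methods state. That call was lost when BirA replicate 1 (adjusted p = 0.206), 2 (0.0543) or 3 (0.175) or Nc1Bio replicate 1 (0.197) or 2 (0.349) was left out of DESeq2, and was kept without Nc1Bio replicate 3 (0.00431). Over all 25 alternatives *Id3* stayed lower, between -0.85 and -0.48 on the log2 scale, with adjusted p from 0.00431 to 0.616.

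*Id2*, which innate lymphoid and NK cells need, showed the widest spread of the 3 Id genes in BirA. Its level was 125, 48.1 and 28.1 CPM in the BirA libraries and 26.8, 14.9 and 24.8 CPM in the Nc1Bio libraries. BirA replicate 1 stood alone, while BirA replicate 3 and Nc1Bio replicate 1 nearly met. The means of 67.1 ± 51.2 and 22.2 ± 6.34 CPM (SD, n = 3) gave a 3.03-fold lower value in Nc1Bio. On the log2 scale this was -1.60 (SE 0.51, 95% interval -2.79 to -0.41), with an unadjusted edgeR p of 0.0147 and an adjusted p of 0.322. Without BirA replicate 1 the log2 fold change was -0.78 (edgeR adjusted p = 0.631). Without BirA replicate 3 it was -1.97 and DESeq2, which did not call it with all libraries (adjusted p = 0.273), called it (adjusted p = 0.0231).

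*Id1*, the Id gene that responds to bone morphogenetic protein signals in many tissues, was scarce. It had 68, 79 and 35 unique reads in the BirA libraries and 8, 18 and 47 in the Nc1Bio libraries. Those are 4.91, 5.06 and 2.43 CPM against 0.666, 1.37 and 3.62 CPM, and the groups overlapped through BirA replicate 3 and Nc1Bio replicate 3. On the log2 scale it differed by -1.13 (SE 0.64, 95% interval -2.61 to 0.36; edgeR adjusted p = 0.523). Leaving out Nc1Bio replicate 3 gave -2.01, and leaving out Nc1Bio replicate 1 gave -0.72. *Id4*, the remaining Id gene, had 1 read in Nc1Bio replicate 3 and 0 in the other 5 libraries, so it was not tested.

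Among the E protein genes, *Tcf12*, which encodes HEB, had the most reads. Its level was 332, 383 and 379 CPM in BirA and 405, 444 and 388 CPM in Nc1Bio. The groups were adjacent without overlap, the lowest Nc1Bio library lying just above BirA replicate 2. Mean levels were 365 ± 28.3 and 413 ± 28.9 CPM (SD, n = 3). The log2 fold change was 0.18 (SE 0.10, 95% interval -0.06 to 0.41), with an edgeR adjusted p of 0.520. That interval spans 0.963-fold to 1.33-fold.

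*Tcf3*, the gene of E2A, stood at 233, 248 and 279 CPM in BirA and 330, 292 and 235 CPM in Nc1Bio. Nc1Bio replicates 1 and 2 were above all BirA libraries, and Nc1Bio replicate 3 was level with the lowest of them. Its log2 fold change was 0.17 (SE 0.14, 95% interval -0.15 to 0.50; edgeR adjusted p = 0.650). *Tcf4*, the gene of E2-2, was almost identical in the BirA libraries at 55.5, 54.7 and 55.7 CPM and spread more in Nc1Bio at 77.0, 47.5 and 50.2 CPM. Its log2 fold change was 0.07 (SE 0.18, 95% interval -0.35 to 0.50; edgeR adjusted p = 0.897), and it turned to -0.17 without Nc1Bio replicate 1. For all 3 E protein genes the interval includes no difference, and its upper end is 1.33-fold to 1.41-fold higher.

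**Figure D2:**
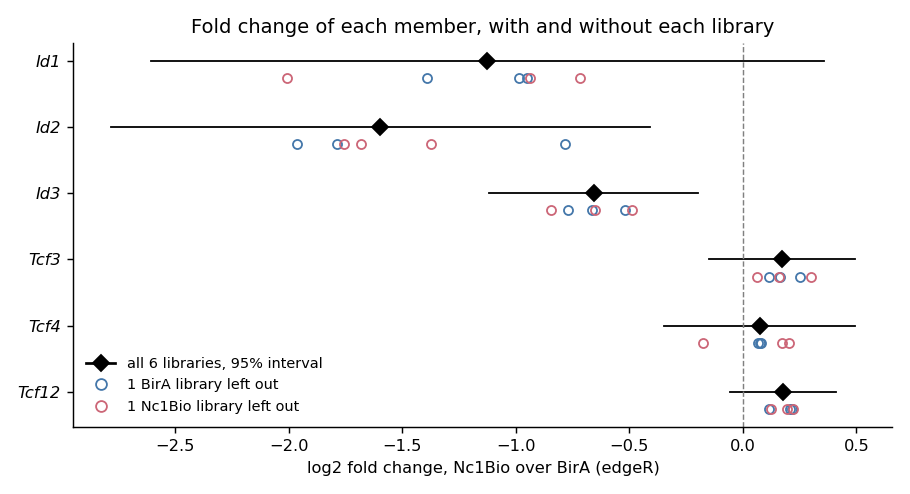
Log2 fold change of Nc1Bio over BirA (horizontal axis) for each gene. Black diamonds and lines are the edgeR estimate from all 6 libraries and its 95% interval, and open circles are the estimates with 1 BirA (blue) or 1 Nc1Bio library (red) left out. *Id2* ranges from -1.96 to -0.78, *Tcf4* has 1 circle below 0, and the *Id3* circles lie between -0.84 and -0.49.

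To compare levels between genes, unique exon reads were divided by exon length. Since the length joins the exons of all annotated transcripts, the levels of *Tcf4* and *Tcf12* are understated by an unknown factor. Those of the other genes may be understated as well. In BirA the order of mean levels, in CPM per kb of exon, was *Tcf3* (61.6 ± 5.83), *Id3* (50.6 ± 8.71), *Id2* (27.4 ± 21.0), *Tcf12* (23.0 ± 1.86), *Id1* (3.56 ± 1.27) and *Tcf4* (1.95 ± 0.0158) (SD, n = 3). Libraries of neighbouring genes overlapped from *Tcf3* down to *Tcf12*, and did not overlap between *Tcf12* and *Id1* or between *Id1* and *Tcf4*. In Nc1Bio the order was *Tcf3* (69.6 ± 11.2), *Id3* (32.2 ± 7.87), *Tcf12* (26.1 ± 1.83), *Id2* (9.06 ± 2.59), *Tcf4* (2.06 ± 0.575) and *Id1* (1.63 ± 1.33). Here *Tcf3* stood clear of *Id3*, and *Id2* lay under *Tcf12* in every library. *Id3* still overlapped *Tcf12*, as did *Tcf4* and *Id1*.

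The summed Id level was 105, 66.1 and 73.1 CPM per kb in the BirA libraries and 43.8, 31.5 and 53.2 in the Nc1Bio libraries. The summed E protein level was 79.5, 86.2 and 93.9 in BirA and 108, 101 and 84.1 in Nc1Bio, so the groups overlapped for the E proteins and did not for the Id genes. Id transcripts thus made up 43.4% to 57.0% of both sums in BirA and 23.8% to 38.8% in Nc1Bio. Because *Tcf4* and *Tcf12* are understated by an unknown factor, these shares and the ratios below may overstate the Id part. The Id genes may be understated too, so the direction of this error is not known. The log2 ratio of the Id sum to the E protein sum was 0.41, -0.38 and -0.36 in BirA, a mean of -0.11 ± 0.45 (SD, n = 3). It was -1.31, -1.68 and -0.66 in Nc1Bio, a mean of -1.21 ± 0.52 (SD, n = 3). The difference of -1.10 is given as a description, without a test, and it came to -0.84 when BirA replicate 1 and to -1.38 when Nc1Bio replicate 3 was left out. Protein was not measured.

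**Figure D3:**
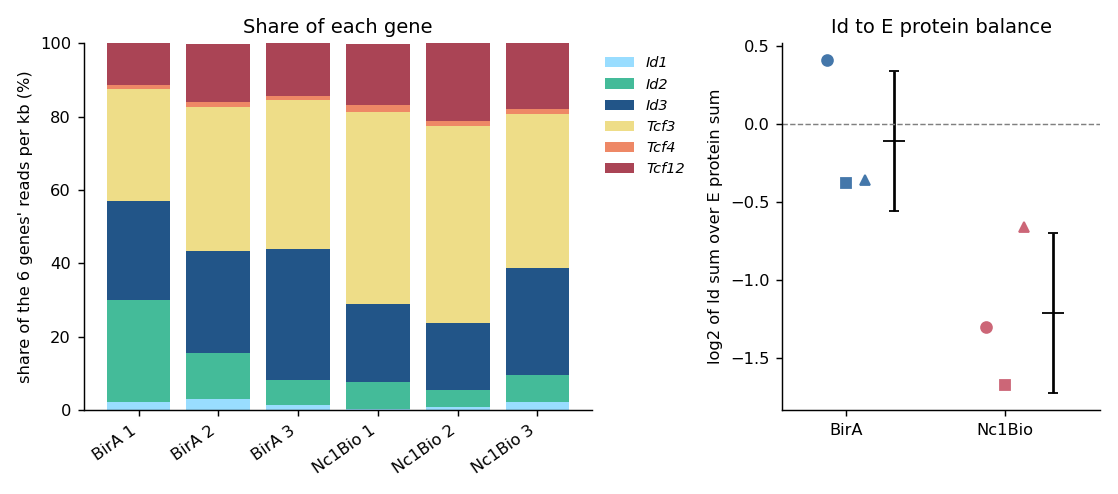
Left, share of each gene in the summed exon reads per kb of the 6 genes (vertical axis, percent) in each library. Right, log2 ratio of the Id sum to the E protein sum by library (symbols as replicates 1 to 3) with the mean ± SD. BirA replicate 1 alone lies above 0, and all Nc1Bio libraries lie below all BirA libraries.

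Intron reads were then examined as a readout of unspliced transcript, which the gene levels do not show. *Id2* and *Id3* had few of them, 0 to 8 and 2 to 11 per library, so their intron shares carry wide counting errors. *Tcf12* had 125, 120 and 122 intron reads in BirA and 101, 100 and 77 in Nc1Bio. Its intron share of unique gene reads was 2.32 ± 0.362% in BirA and 1.77 ± 0.278% in Nc1Bio (SD, n = 3), with a two-sided exact permutation p of 0.20, where 0.10 is the smallest p that 3 against 3 libraries allow. Over all genes the intron share was 2.15%, 2.10% and 1.94% in the BirA libraries and 2.05%, 1.69% and 1.58% in the Nc1Bio libraries, and the same 2 Nc1Bio libraries were lowest in both measures. For *Id2*, *Id3*, *Tcf3* and *Tcf4* the exact permutation p lay between 0.30 and 0.90 (n = 3 per group). The joined exons of *Id1* cover its whole gene region, so no intron read could be counted for it. The difference in share turned its sign for *Tcf3* (-0.143 to 0.085 and 0.247 percentage points) without BirA replicate 2 or Nc1Bio replicate 3, and for *Tcf4* (-0.233 to 0.460 and 0.559) without BirA replicate 3 or Nc1Bio replicate 3. Exon-exon reads made up 39.3 ± 2.50% of the exon reads of *Tcf3* in BirA and 38.9 ± 0.136% in Nc1Bio, and 23.2 ± 0.344% and 23.8 ± 1.81% for *Tcf12* (SD, n = 3).

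Genes that E proteins are known to activate in thymocytes were counted next, as 11 genes of a list from which 1 gene is not reported here, all of them tested. On average 8 were higher in Nc1Bio and 3 lower, the median being 0.28 on the log2 scale beside -0.0026 over all genes. By edgeR 0 passed, while at an unadjusted p under 0.05 3 were higher (*Ptcra*, *Notch3* and *Dntt*), beside 4.31% of all genes. DESeq2 called *Ptcra* and *Notch3* higher, beside 0.32% of the genes with an adjusted p. *Ptcra*, the pre-TCR α chain that pairs with TCRβ, stood at 9.46, 9.73 and 10.7 CPM in BirA and 16.5, 34.3 and 17.9 CPM in Nc1Bio (log2 fold change 1.20, SE 0.29). *Notch3* stood at 114, 109 and 119 CPM against 151, 192 and 137 CPM (0.49, SE 0.13). *Dntt*, which encodes the terminal transferase that adds bases at TCR junctions, was at 1930, 1990 and 2210 CPM against 2930, 2500 and 2300 CPM (0.33, SE 0.12).

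For these 3 genes the groups did not overlap, which adds no separate support since they were named for a low p. With *Notch1*, 4 of the 11 were higher without overlap, as were 8.45% of all genes. The DESeq2 call of *Ptcra* was lost without BirA replicate 1 (adjusted p = 0.0718) or 2 (0.0887) or Nc1Bio replicate 2 (0.143). That of *Notch3* was lost without any library but BirA replicate 3 and Nc1Bio replicate 3. *Cdkn1a*, *Cd4* and *Cxcr4*, the 3 lower genes among the 11, had log2 fold changes of -0.32 (SE 0.22), -0.45 (SE 0.66) and -0.099 (SE 0.21). *Ptcra* and the recombinase genes *Rag1* and *Rag2* are uncertain here, since most of their reads were not unique. *Ptcra* had 131 to 452 unique and 861 to 2694 total reads per library, and its log2 fold change in total gene reads was 1.12 (SE 0.21; edgeR adjusted p = 0.140). *Rag1* had 29 to 123 unique reads. Its total reads ran from 6969 to 18305 per library with a log2 fold change of 0.56, against 0.50 in unique reads. *Rag2* had 25 to 59 unique and 498 to 1064 total reads, with log2 fold changes of 0.535 and 0.56. In total reads its edgeR p was 0.0448 unadjusted and 0.424 adjusted, against 0.255 and 0.661 in unique reads.

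Inducers of the Id genes and their feedback regulators formed a list of 14, of which 12 were tested. Averages were lower in Nc1Bio for all 12, and their median was -0.61 on the log2 scale beside -0.0026 over all genes. No gene passed in edgeR (0 of 12). An unadjusted p under 0.05 was reached by 6, all lower, of which DESeq2 called 3. Over all genes those shares were 7.66% and 2.16%. *Tgfbr2*, a TGF-β receptor chain, had the lowest p, with 158, 103 and 113 CPM in BirA and 56.3, 53.5 and 58.6 CPM in Nc1Bio. Its difference was -1.15 on the log2 scale (SE 0.16; edgeR adjusted p = 0.106; DESeq2 adjusted p = 1.75e-08), and the DESeq2 call stood with each library left out in turn.

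*Egr3*, one of the receptor-induced factors that act on *Id3*, stood at 11.2, 5.06 and 3.20 CPM in BirA and 1.17, 1.67 and 0.848 CPM in Nc1Bio. Its log2 fold change was -2.39 (SE 0.56; DESeq2 adjusted p = 0.00268), and the DESeq2 call was lost without BirA replicate 1 (0.202), its highest library. *Smad7*, an inhibitor of TGF-β and BMP signals that those signals induce, stood at 18.2, 11.9 and 14.6 CPM in BirA and 8.25, 5.39 and 4.01 CPM in Nc1Bio (-1.34, SE 0.32; DESeq2 adjusted p = 0.00553). That call was lost without BirA replicate 1 (0.130) or Nc1Bio replicate 2 (0.0980). *Egr1* and *Egr2* were called by neither tool, with log2 fold changes of -0.95 (SE 0.33) and -1.75 (SE 0.68). Nor was *Bmpr2*, a BMP receptor chain and the last of the 6 genes at an unadjusted p under 0.05. It stood at 16.7, 21.4 and 20.6 CPM in BirA and 13.8, 15.3 and 13.8 CPM in Nc1Bio (-0.45, SE 0.17). The BMP-responsive *Smad1* and *Smad5* and the shared *Smad4* were near level, at -0.042, -0.0050 and -0.035.

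**Figure D4:**
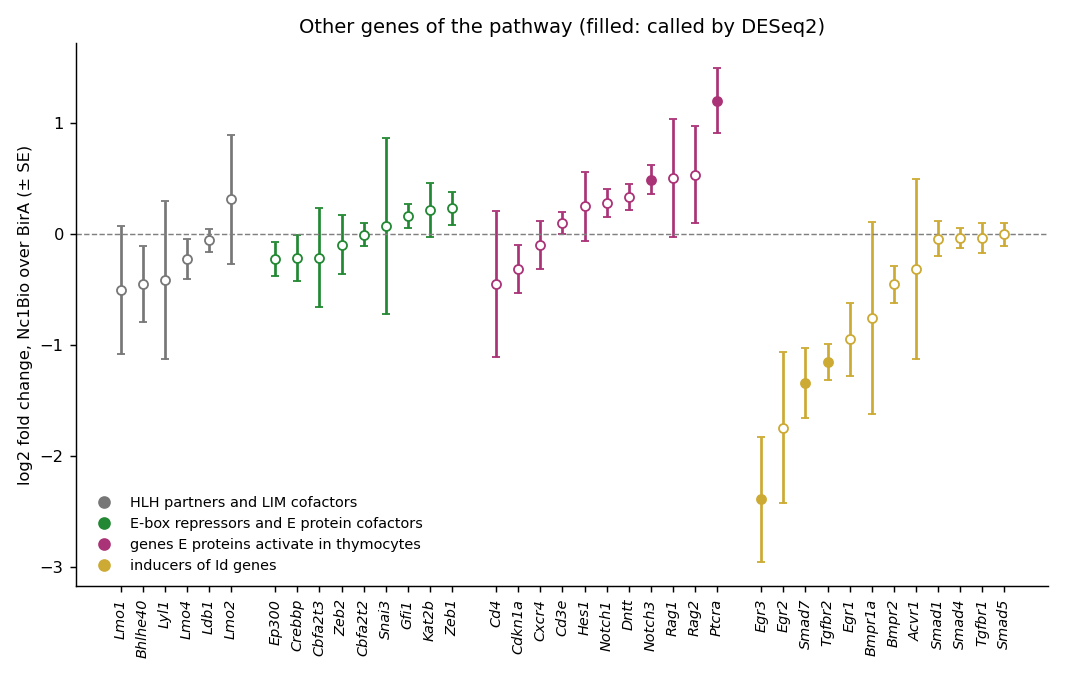
Log2 fold change of Nc1Bio over BirA from edgeR (vertical axis, ± SE) for the tested genes of 4 lists around the Id and E proteins. Filled points were called by DESeq2. *Ptcra* (1.20) and *Notch3* (0.49) are filled above 0, *Egr3*, *Smad7* and *Tgfbr2* are filled below 0, and the helix-loop-helix partners and cofactors have no filled point.

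The other partners of the E proteins gave no call. Of 12 helix-loop-helix partners and LIM cofactors 6 were tested, 1 higher and 5 lower, the median being -0.32 on the log2 scale. In unique reads 0 passed by edgeR and DESeq2, and 0 had an unadjusted edgeR p under 0.05. *Bhlhe40*, *Lmo4* and *Lmo1* had the lowest p, with log2 fold changes of -0.45 (SE 0.34), -0.23 (SE 0.18) and -0.50 (SE 0.58), and *Lmo2* was the higher one at 0.31 (SE 0.58). *Lyl1*, a partner known from early progenitors and named after its values were seen, was at -0.42 (SE 0.71) in unique reads, of which it had 4 to 31 per library. In its 85 to 201 total gene reads it was at -0.78 (SE 0.22), with an unadjusted p of 0.00847 and an adjusted p of 0.288 in edgeR. *Lmo2* too had mostly reads that were not unique, and was at 0.11 in total gene reads. Of 12 E-box repressors and E protein cofactors 9 were tested, 4 higher and 5 lower, with a median of -0.0057 and again 0 calls by either tool or at an unadjusted p under 0.05. *Zeb1*, a repressor that competes for E-boxes, was at 0.23 (SE 0.15), *Gfi1* at 0.16 (SE 0.11) and *Kat2b* at 0.22 (SE 0.24). *Ep300* and *Crebbp*, the acetyltransferases that E proteins recruit, were at -0.22 (SE 0.16) and -0.22 (SE 0.20), and *Cbfa2t3* at -0.21 (SE 0.44), or -0.061 in total gene reads.

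Summed markers of NK and innate lymphoid cells and of B cells were lower in Nc1Bio, as *Id2* was. The 12 NK and innate lymphoid markers summed to 756 to 1020 CPM in BirA and to 382, 424 and 508 CPM in the Nc1Bio libraries. None was at 0 in every library, and all 10 tested genes were lower on average. Most of the NK sum was *Gzma*. Without it the sum was 470, 119 and 110 CPM in BirA and 108, 49.3 and 39.6 CPM in Nc1Bio. Within Nc1Bio neither sum followed the library order of *Id2* (26.8, 14.9 and 24.8 CPM). BirA replicate 1, the library richest in *Id2*, was also the richest in these markers. The list of 10 B cell markers, with *Ighm* left out, gave 386, 143 and 137 CPM in BirA and 94.0, 57.0 and 77.7 CPM in Nc1Bio. That sum was again led by BirA replicate 1 and had the order of *Id2* over the 6 libraries. The whole list, with *Igkc* at 0, did not have that order, at 2070, 1660 and 1820 CPM in BirA and 1570, 293 and 1410 CPM in Nc1Bio. The part of NK, innate lymphoid and B cells in the *Id2* difference was not tested. The sums without *Gzma* and *Ighm*, and the like sum for plasmacytoid dendritic cells, were chosen after their values were seen.

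For *Id3* the library order differed, as BirA replicate 3 was its highest and BirA replicate 1 was not set apart. The γδ and innate-like T cell markers, a class in which *Id3* is known to be used, summed to 813, 1100 and 1140 CPM in BirA and 551, 571 and 750 CPM in Nc1Bio, with 8 of 9 lower on average. A large part of that sum, *Tcrg-C1*, was near level (log2 fold change -0.04, SE 0.13). It stood at 307, 316 and 416 CPM in BirA and 331, 318 and 361 CPM in Nc1Bio. Markers of mature and double-positive T cells summed to 870 to 993 CPM in BirA and 556 to 650 CPM in Nc1Bio, with all 8 lower. Conventional dendritic cell markers summed to 92.5, 74.4 and 60.5 CPM in BirA and 47.1, 24.6 and 46.7 CPM in Nc1Bio. That is the library order of *Id2* and not of *Id3*. Most of that sum was *Itgax* and *Ccr7*, and *Ccr7* is also counted among the mature T cell markers. *Itgax* stood at 46.9, 48.0 and 29.2 CPM in BirA and 28.7, 14.6 and 31.0 CPM in Nc1Bio. For *Ccr7* the values were 28.5, 22.9 and 27.4 CPM against 11.2, 8.57 and 14.1 CPM. Neither gene alone had the library order of *Id2*. Endothelial and mesenchymal markers summed to 153 to 169 CPM in BirA and 121 to 129 CPM in Nc1Bio. The part of these cells in the *Id2* and *Id3* differences was not tested.

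*Tcf4* was read beside the markers of plasmacytoid dendritic cells, which summed to 593, 395 and 412 CPM in BirA and 696, 522 and 515 CPM in Nc1Bio. Most of that sum was *Ly6d* and *Bst2*, and without them it was 94.1, 58.3 and 51.6 CPM in BirA and 50.9, 66.3 and 45.1 CPM in Nc1Bio. Of the 7 tested markers 3 were higher and 4 lower on average, with a median of -0.34 on the log2 scale. Nc1Bio replicate 1 was highest in *Tcf4* and in the full sum, and BirA replicate 1 was highest in the sum without *Ly6d* and *Bst2*. The sums of the other lists overlapped between the groups. They were 53.8 to 192 and 39.4 to 79.0 CPM for macrophages, 462 to 9280 and 380 to 5620 CPM for granulocytes, 20100 to 66100 and 17600 to 97500 CPM for erythroid cells, and 84.0 to 108 and 99.2 to 138 CPM for thymic epithelium, the first range of each pair being BirA. Of these lists, *Igkc* and, among the partners, *Msc* were the genes at 0 in every library.

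**Figure D5:**
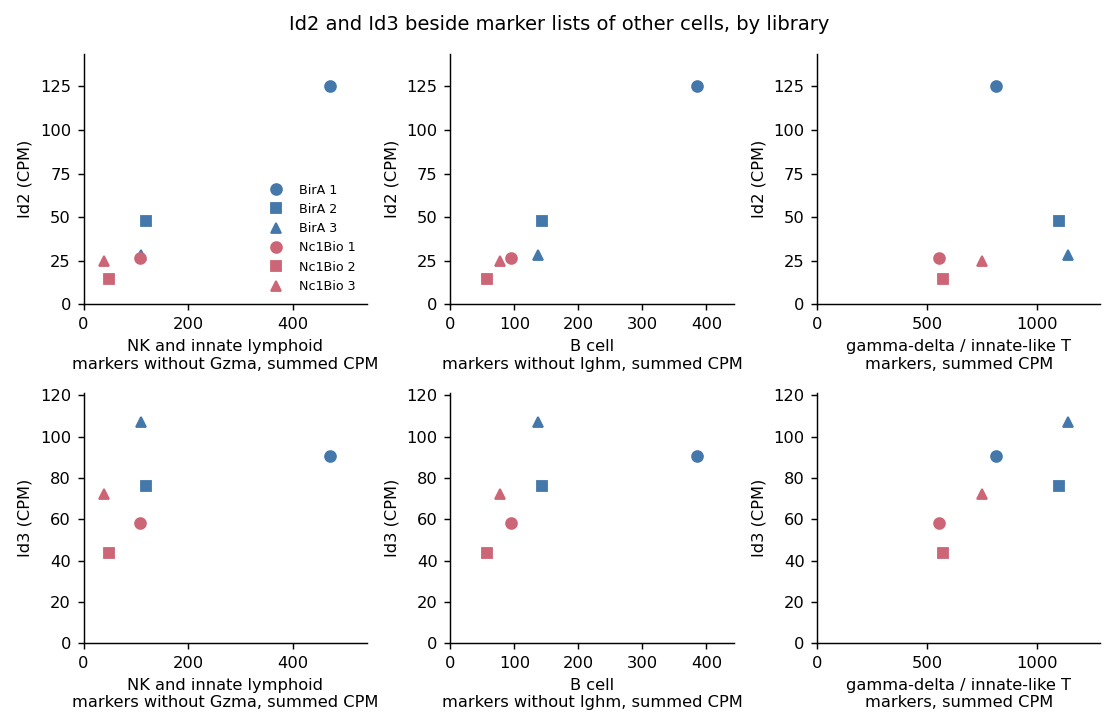
*Id2* (top) and *Id3* (bottom) in CPM against the summed CPM of NK and innate lymphoid markers without *Gzma*, B cell markers without *Ighm*, and γδ and innate-like T cell markers, one point per library (blue, BirA; red, Nc1Bio). BirA replicate 1 stands apart in *Id2* and in the first 2 sums (470 and 386 CPM), and not in *Id3*.

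The genes whose levels followed each member most closely over the 6 libraries are given as a description, with Pearson's r of log2 CPM. These points share the scaling and depth of each library. Nearest to *Id2* were *Pax5* (r = 0.997), the B lineage factor, *Lfng* (0.996), which encodes a glycosyltransferase that modifies Notch, and *Bcar3* (0.993). *Pax5* stood at 23.4, 7.94 and 5.0 CPM in BirA and 4.58, 2.05 and 4.01 CPM in Nc1Bio, so BirA replicate 1 set it apart as it did *Id2*. Nearest to *Id3* were *Ajuba* (0.989), *Rgs10* (0.979), a regulator of G protein signalling, and *Zfp324* (0.978). For *Id1* they were *Zfp959* (0.996), *Tbxas1* (0.993) and *Usp9x* (0.990).

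Nearest to *Tcf12* was *Notch1* (r = 0.993), the receptor that commits thymocytes to the T lineage, at 422, 512 and 502 CPM in BirA and 569, 659 and 514 CPM in Nc1Bio, followed by *Zcwpw1* (0.991) and *Fsip1* (0.984). *Notch1* itself differed by 0.28 on the log2 scale (SE 0.13), with an edgeR adjusted p of 0.438. For *Tcf3* the nearest were *Urb2* (0.996), *Ogfod3* (0.989) and *Polr1e* (0.984), the last a subunit of RNA polymerase I. For *Tcf4* they were *Emc1* (0.992), *Eif5b* (0.958) and *Dmd* (0.954). Among the members, *Id2* and *Tcf12* ran opposite to each other (r = -0.929), as did *Id1* and *Tcf3* (-0.955), while *Id2* and *Id3* ran together less closely (0.600), each over 6 libraries.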

How the data were processed

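Poly(A) RNA of DN thymocytes was sequenced as single reads of 59 bases. The methods name cutadapt, STAR and featureCounts. The layout of the deposited tables is not one that featureCounts writes, and neither the program that made them nor its use of strand is given in the sources used here. From the deposited tables, counts were taken of gene, exon and intron reads, each as unique and as total, and of unique exon-exon reads. Their RPKM and TPM columns were left aside.

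Unique gene reads were the main counts. Genes passing filterByExpr were TMM-scaled and tested by edgeR 4.0.16 (quasi-likelihood, default legacy mode; R 4.3.3) with genotype as the single term, Benjamini-Hochberg adjustment and calls at 0.05. DESeq2 1.42.0 and limma-voom (limma 3.58.1) were alternatives, as were other scalings, filters and count columns, the replicate number as a block and leaving out each library. Added after seeing the data were DESeq2 without each library, haemoglobin genes left out, the omission of both BirA replicate 1 and Nc1Bio replicate 3, and exon-exon reads for the balance. CPM use TMM-scaled sizes and correlations a prior count of 2. Intron shares were computed for the 5 members with at least 50 unique gene reads in every library and compared by a two-sided exact permutation test. The steps were tested on simulated data.

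The members and the 17 gene lists were chosen with earlier results of these data known. A gene that belonged to 2 of these lists is not reported here and was left out of their counts and sums. Named are the 6 members, *Id4*, in each pathway list the 3 genes of lowest p in each direction and those called, the 3 genes nearest to each member by correlation (predicted models left out), and *Nfatc1*. Further genes were named after their values were seen. No 2 libraries were duplicates, the lowest chi-square per degree of freedom between any pair being 24.3. Counts are reads, not molecules. Promoter windows were searched for 4 of the 6 members, and none was searched for *Id1* or *Tcf4*.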

Additional observations from a re-analysis of the deposited data

How the results depend on the processing

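Each of the 6 members kept its direction under all alternatives except *Tcf4*, whose log2 fold change turned from 0.074 to -0.174 (edgeR) and -0.178 (DESeq2) without Nc1Bio replicate 1 (up to 0.203 without Nc1Bio replicate 2). Calls appeared under DESeq2 alone: for *Id3* with all libraries (-0.656), without Nc1Bio replicate 3 (-0.849) and without both BirA replicate 1 and Nc1Bio replicate 3 (-0.854), and for *Id2* without BirA replicate 3 (-1.972). The count of genes called, 1 in the main fit, was 156 without a low-count filter, 326 with DESeq2, 183 with DESeq2 at the study's threshold, 3 and 245 (edgeR and DESeq2) without both named libraries, and 0 to 2 (edgeR) when single libraries were left out. DESeq2 gave 191, 188 and 687 without BirA replicate 1, 2 and 3 and 264, 159 and 348 without Nc1Bio replicate 1, 2 and 3. The cause was not tested.

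With the replicate number as a replicate block edgeR called 2 genes and no member, with *Id3* at -0.672 (adjusted p = 0.103) and *Id2* at -1.38. Deviations of same-numbered libraries correlated at 0.335, 0.118 and -0.0991, and those of differently numbered libraries at -0.387 to 0.253. Such few values cannot settle whether the numbers pair the samples. The balance and the intron shares moved by less than 1 SD under all alternatives, but the intron share difference turned its sign without single libraries for *Tcf3* (lowest -0.370, highest 0.247) and *Tcf4* (-0.909 and 0.559). *Id1* rests on 8 to 79 reads per library.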
